A study of Homo sapiens with 8 samples.

Results

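Ubiquitin-specific proteases (USPs) form the largest family of human deubiquitinases, and their mRNAs were followed here in RNA that was pulled down with ribosomal protein S6 (RPS6) and in the RNA from which it was pulled down. The members were all genes of the deposited tables whose symbol is USP with a number and at most 1 further letter, without the gene of this name pattern that lies on the Y chromosome. This gave 51 of 57756 genes. RNA immunoprecipitation (RIP) with an RPS6 antibody was performed in 4 human cancer cell lines, and the RIP RNA and the total RNA of the same line (input) were sequenced. Hep3B is a line from hepatocellular carcinoma, HCT116 from colorectal cancer, DU145 from prostate cancer, and SW1990 from pancreatic cancer, and all were used without any treatment or gene change named in the labels. Each line gave 1 input and 1 RIP library, 8 libraries in all, so the 4 lines served as the replicates and p-values measure the spread between these different lines. No RIP library with a control antibody was analysed here, so a higher level in RIP is a level relative to input only. In the liver pair, the titles and the methods of the study name Hep3B while the cell line field names Huh7, and the pair is called Hep3B below.

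USPs are cysteine proteases that cut ubiquitin from proteins or trim ubiquitin chains. They can thereby spare a protein from the proteasome, change its place in the cell, or switch off a signal that is carried by ubiquitin, and most members are best known for a few substrates. Several act on the ribosome itself, where ubiquitin on proteins of the small subunit marks stalled or unfinished particles. RPS6 is a protein of the small (40S) subunit, so RNA recovered with it includes mRNAs that were bound to ribosomes. Values in this assay are relative to the total of a library, and in cultures of many cells a change in the number of cells with an mRNA and a change in the amount per cell cannot be told apart.

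The input libraries held 35796194 to 54209625 fragments and the RIP libraries 34630338 to 42610081 fragments, as recovered from the deposited estimated counts. All 4 liver markers (ALB, AFP, APOA1 and APOB) reached 1 FPKM in both Hep3B libraries, with a summed level of 5877 FPKM in input and 11687 FPKM in RIP, and at most 3.66 FPKM in any library of another line. FPKM is the number of fragments per kilobase of transcript, scaled to a common library size. None of the 4 intestinal markers reached 1 FPKM in HCT116 (summed level 0.259 FPKM in input and 0.272 FPKM in RIP). In Hep3B input their summed level was 151 FPKM, nearly all of it VIL1. The prostate markers KLK3 and KLK2 were listed at 0 in both DU145 libraries. In SW1990 input, 3 of the 4 pancreatic duct markers reached 1 FPKM (summed level 234 FPKM, of which KRT19 was 229 FPKM), while TFF1 was at 0.870 FPKM. As many reached 1 FPKM in HCT116 and DU145 inputs, with higher summed levels of 588 and 416 FPKM. The intestinal and pancreatic duct lists thus did not set HCT116 and SW1990 apart. The epithelial markers EPCAM, KRT8 and KRT18 were above 1 FPKM in all 8 libraries, and KRT8 and KRT18 were higher in RIP (log2 fold change 2.04 and 1.11). Of blood and stromal markers only COL1A1 was tested and was higher in RIP (1.98), and the summed level of the 3 that were found was 0.387 to 4.31 FPKM in the inputs and 2.67 to 25.3 FPKM in RIP. The part of these differences in the results on USP mRNAs was not tested.

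Most USP mRNAs differed between RIP and input, and more of them were higher in RIP than lower. The test was edgeR's quasi-likelihood test with the cell line as a block and Benjamini-Hochberg adjustment over all 19921 genes with a mean of at least 10 estimated counts. Of the 51 members, 49 were tested. USP26 and USP29 did not reach the minimum count, with at most 0.136 FPKM and 0.0239 FPKM in any library. At an adjusted p under 0.05, 24 of the 49 tested members were higher in RIP (49.0%, beside 26.5% of all genes tested and 32.3% of the 13561 protein-coding genes tested). A further 11 members were lower in RIP (22.4%, beside 24.9% of all genes and 26.1% of protein-coding genes), and 14 did not pass. All 24 members that rose were higher in RIP in 4 of 4 lines by both estimated counts and FPKM. All 11 members that fell were lower in 4 of 4 lines by estimated counts, but only USP1, USP8, USP12, USP16 and USP53 were lower in 4 of 4 lines by FPKM. The log2 fold changes of the tested members ran from -2.31 to 3.06 with a median of 0.50, beside a median of -0.05 over all genes tested and 0.13 over protein-coding genes. Without the cell line as a block, 12 members passed as higher and 5 as lower, beside 7.16% and 6.75% of all genes tested.

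**Figure D1:**
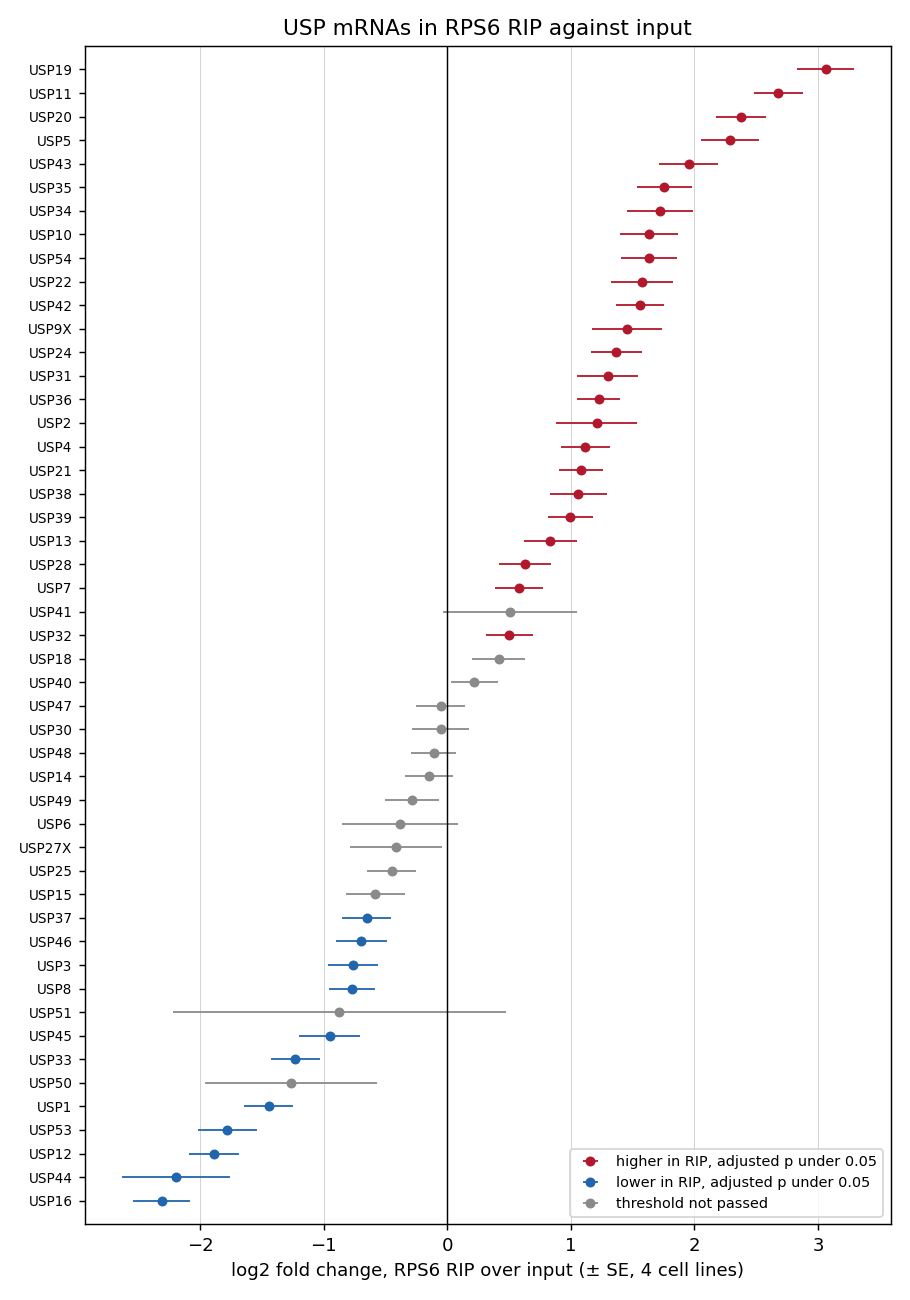
Log2 fold change of RPS6 RIP over input (x axis) for the 49 USP mRNAs tested (y axis). Bars are the standard error from the edgeR fit to 4 cell lines. Red points are the 24 members higher in RIP, blue points the 11 lower, and grey points the 14 that did not pass an adjusted p under 0.05. USP19 stands at the top with 3.06 and USP16 at the bottom with -2.31.

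In 12 of the 49 tested members all 4 RIP levels lay above all 4 input levels in FPKM (24.5%, beside 10.9% of all genes tested). These were USP4, USP9X, USP11, USP13, USP19, USP20, USP22, USP24, USP31, USP34, USP36 and USP42. In 3 members, USP12, USP16 and USP53, all 4 RIP levels lay below all 4 input levels (6.12%, beside 8.17% of all genes). The other 34 overlapped between the groups. As a share of all fragments of a library, the 51 members together held 0.259% in Hep3B input and 0.361% in its RIP library. HCT116 had 0.356% in input and 0.613% in RIP, DU145 had 0.374% and 0.594%, and SW1990 had 0.307% and 0.505%. The 95% Wilson intervals of these shares reached at most 0.616% and were at least 0.257%, and they cover counting error only, since fragments are not independent molecules. The share was thus higher in RIP in 4 of 4 lines. The intervals of input and RIP did not overlap within any line, but with so many fragments they are too narrow to speak to the spread between libraries. Single genes held a large part. USP22 gave 31113 of the 124848 member fragments in Hep3B RIP, and USP34 gave 56324 of 218447 in DU145 RIP. No share of another gene set was set beside these.

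Of the 5 USPs that act on ribosomes, 4 rose and USP16 fell. Of all genes tested 26.5% rose and 24.9% fell, and of all tested members 49.0% and 22.4%, and the counts of every role group below stand beside these shares. In the following, 4 values are always given in the order Hep3B, HCT116, DU145 and SW1990. USP9X removes ubiquitin from ZNF598, the ligase that marks collided ribosomes. Its mRNA was at 13.0, 16.5, 15.0 and 13.4 FPKM in the inputs and at 34.3, 108, 43.5 and 47.4 FPKM in RIP, a log2 fold change of 1.45 ± 0.28 (SE), adjusted p = 0.00157. The inputs lay close together and every RIP library was above all of them, with the HCT116 RIP library the highest. USP10 rescues 40S proteins from breakdown and is bound by the stress granule protein G3BP1. It was at 28.1, 77.2, 62.7 and 39.5 FPKM in the inputs and 50.9, 269.6, 141 and 179.8 FPKM in RIP (log2 fold change 1.63 ± 0.23 (SE), adjusted p = 0.000228). The Hep3B RIP library was below 2 of the inputs of other lines, so the groups overlapped although each line rose.

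USP21, which also cuts ubiquitin from 40S proteins, was at 17.5, 9.68, 27.1 and 20.1 FPKM in the inputs and 47.8, 19.9, 65.1 and 36.2 FPKM in RIP (log2 fold change 1.08 ± 0.18 (SE), adjusted p = 0.000514). The groups overlapped, and the inputs of the lines differed from each other by more than RIP differed from input, with HCT116 the lowest on both sides. USP36 is a nucleolar enzyme needed for the making of ribosomes. It was at 15.0, 29.6, 15.2 and 20.3 FPKM in the inputs and 41.6, 68.2, 47.3 and 57.4 FPKM in RIP (log2 fold change 1.23 ± 0.17 (SE), adjusted p = 0.000191), and the groups did not overlap. Its ratio of RIP to input differed little between lines, with log2 ratios of estimated counts of 1.17, 1.14, 1.38 and 1.18.

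USP16 removes ubiquitin from histone H2A and from RPS27A in maturing 40S subunits, and it was the member with the lowest fold change. Its level was 15.3, 19.8, 18.8 and 37.8 FPKM in the inputs and 7.23, 4.90, 6.67 and 6.0 FPKM in RIP (log2 fold change -2.31 ± 0.23 (SE), adjusted p = 2.62e-05). Every RIP library was below every input. SW1990 had the highest input and HCT116 the lowest RIP level.

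**Figure D2:**
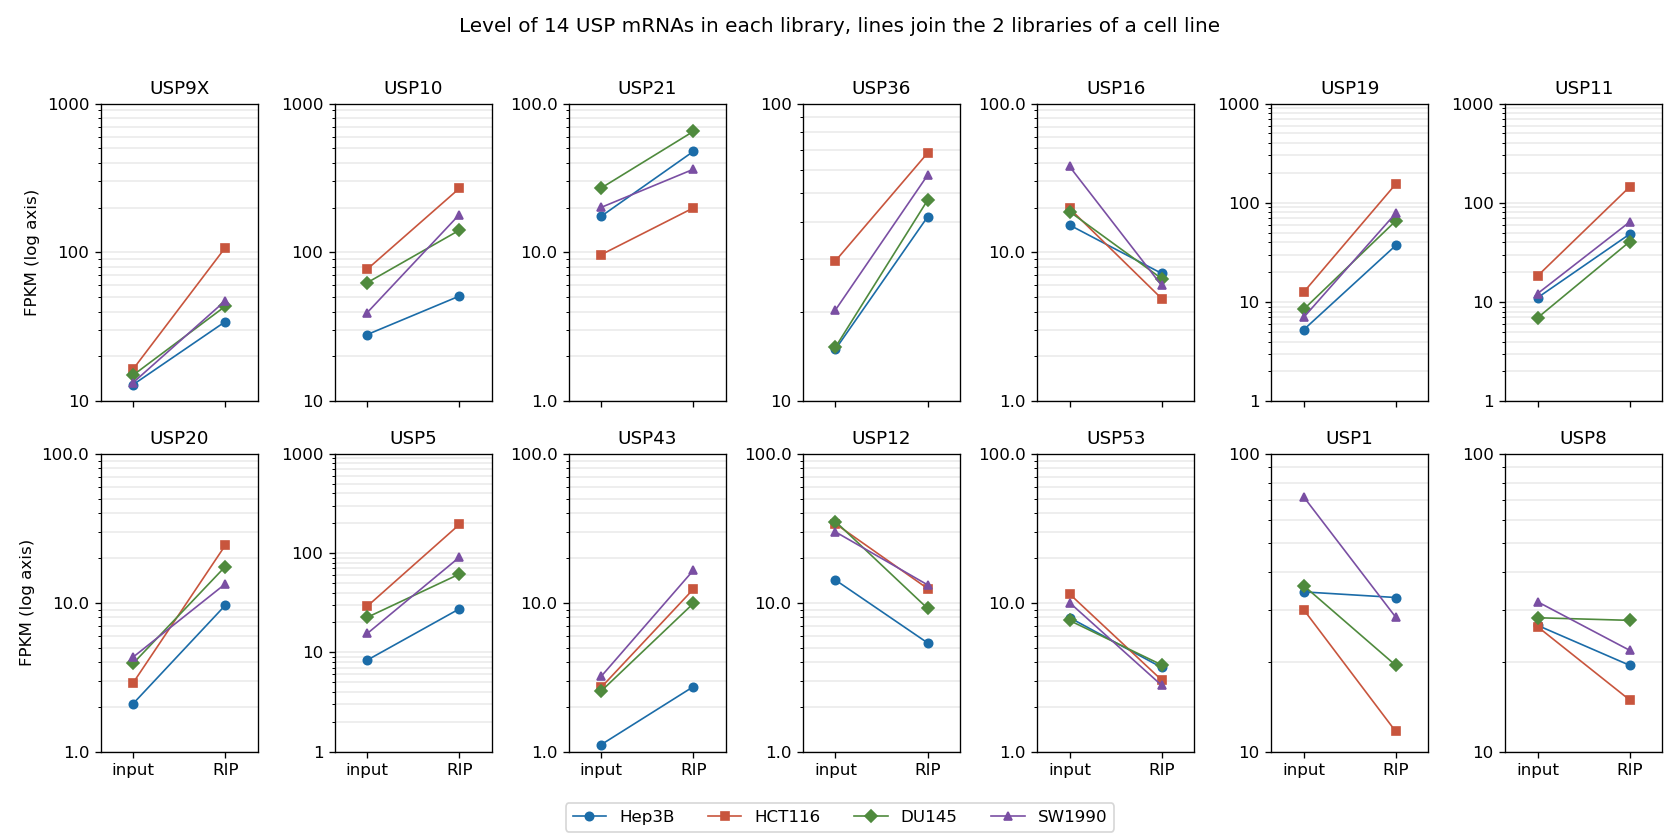
FPKM (y axis, log scale, its own range in each panel) of 14 USP mRNAs in input and RIP (x axis), with 1 point per library and a line joining the 2 libraries of a cell line. USP9X, USP10, USP21, USP36, USP19, USP11, USP20, USP5 and USP43 rose in each line, and USP16, USP12, USP53, USP1 and USP8 fell in each line.

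The 5 members with the highest fold change were USP19, USP11, USP20, USP5 and USP43. USP19 is anchored in the endoplasmic reticulum, where it takes part in the quality control of proteins. Its mRNA was at 5.25, 12.5, 8.43 and 6.99 FPKM in the inputs and 37.2, 154, 65.6 and 78.4 FPKM in RIP (log2 fold change 3.06 ± 0.23 (SE), adjusted p = 1.27e-05). The lowest RIP library, Hep3B, was still well above the highest input, HCT116. USP11 acts in repair of DNA breaks with BRCA2. It was at 11.1, 18.4, 6.95 and 12.2 FPKM in the inputs and 48.4, 145, 40.7 and 64.2 FPKM in RIP (log2 fold change 2.68 ± 0.20 (SE), adjusted p = 1.27e-05), and the groups did not overlap.

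USP20 removes ubiquitin from membrane receptors during their recycling. Its level was 2.10, 2.90, 3.91 and 4.32 FPKM in the inputs and 9.61, 24.3, 17.5 and 13.4 FPKM in RIP (log2 fold change 2.38 ± 0.20 (SE), adjusted p = 1.43e-05). The groups did not overlap, and Hep3B was the lowest on both sides. USP5 takes apart free ubiquitin chains. It was at 8.35, 29.2, 22.5 and 15.5 FPKM in the inputs and 27.4, 194, 61.5 and 90.9 FPKM in RIP (log2 fold change 2.29 ± 0.23 (SE), adjusted p = 2.99e-05). The Hep3B RIP library was below the HCT116 input, so the groups overlapped, while the HCT116 RIP library was far above all others. USP43, to which no role was assigned, was at 1.11, 2.71, 2.56 and 3.21 FPKM in the inputs and 2.73, 12.4, 9.91 and 16.5 FPKM in RIP (log2 fold change 1.95 ± 0.24 (SE), adjusted p = 8.37e-05), and the Hep3B RIP library was below the SW1990 input.

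The 5 members with the lowest fold change were USP16, USP44, USP12, USP53 and USP1. USP12 works with the WD-repeat proteins WDR48 and WDR20. Its mRNA was at 14.2, 33.9, 35.1 and 29.9 FPKM in the inputs and 5.37, 12.5, 9.16 and 13.2 FPKM in RIP (log2 fold change -1.89 ± 0.20 (SE), adjusted p = 3.64e-05), and all RIP libraries were below all inputs. USP53, a protein of cell junctions, was at 7.94, 11.5, 7.60 and 10.0 FPKM in the inputs and 3.67, 3.02, 3.82 and 2.79 FPKM in RIP (log2 fold change -1.78 ± 0.24 (SE), adjusted p = 0.000139), again without overlap.

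USP1 removes ubiquitin from FANCD2 and PCNA after DNA damage. It was at 34.4, 30.0, 36.1 and 71.8 FPKM in the inputs and 32.9, 11.7, 19.5 and 28.3 FPKM in RIP (log2 fold change -1.45 ± 0.19 (SE), adjusted p = 0.000149). In Hep3B the FPKM of RIP and input were nearly equal, while its log2 ratio of estimated counts was -1.01. USP44, a regulator of the mitotic checkpoint, was at 8.54, 0.0430, 5.73 and 0.0420 FPKM in the inputs and 3.0, 0.0659, 2.13 and 0 FPKM in RIP (log2 fold change -2.20 ± 0.44 (SE), adjusted p = 0.00184). HCT116 gave 7 input and 1 RIP fragments and SW1990 gave 5 and 0, so nearly all fragments of USP44 came from Hep3B, with 840 and 144, and DU145, with 790 and 116.

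Among the 11 members with roles in DNA repair or on histones, 4 rose (USP7, USP11, USP22 and USP28), 3 fell (USP1, USP3 and USP44), and USP27X, USP48, USP49 and USP51 did not pass. USP22 is the deubiquitinase of the SAGA coactivator complex and had the highest mean level of all USP mRNAs in input. It was at 93.1, 101, 125 and 45.9 FPKM in the inputs and 367, 307, 278 and 310.0 FPKM in RIP (log2 fold change 1.57 ± 0.25 (SE), adjusted p = 0.000449), and the groups did not overlap. USP7, which keeps MDM2 and p53 from breakdown, rose by less, from 30.5, 52.6, 35.4 and 65.0 FPKM in the inputs to 58.9, 111, 70.0 and 103 FPKM in RIP (log2 fold change 0.58 ± 0.20 (SE), adjusted p = 0.0295). USP7 no longer passed without the HCT116 pair (0.48), the DU145 pair (0.55) or the SW1990 pair (0.57). USP3, a histone H2A deubiquitinase, was at 34.0, 38.6, 26.5 and 22.1 FPKM in the inputs and 34.9, 20.1, 24.5 and 15.4 FPKM in RIP (log2 fold change -0.76 ± 0.20 (SE), adjusted p = 0.00939). USP28 no longer passed without the DU145 pair (0.65) or the SW1990 pair (0.42).

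Of the 8 members that act at membranes or in trafficking, 4 rose (USP19, USP20, USP32 and USP35), 2 fell (USP8 and USP33), and USP6 and USP30 did not pass. USP8 works at endosomes, where it controls the sorting of growth factor receptors. It was at 26.5, 26.2, 28.1 and 31.8 FPKM in the inputs and 19.5, 14.9, 27.6 and 21.9 FPKM in RIP (log2 fold change -0.77 ± 0.19 (SE), adjusted p = 0.00576), so that each line fell but the DU145 pair was nearly level. USP30 sits on the outer membrane of mitochondria and opposes their removal by autophagy. It was at 3.99, 7.98, 7.82 and 7.27 FPKM in the inputs and 7.70, 7.49, 7.98 and 7.62 FPKM in RIP, and its fold change of -0.05 ± 0.23 (SE), adjusted p = 0.861 did not pass. USP32, an endosomal enzyme with a log2 fold change of 0.50 and an adjusted p of 0.0488, passed in none of the 4 fits that each left out 1 line (0.34 to 0.56).

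In the group of 3 members that serve the proteasome or take apart free chains, USP5 and USP13 rose and USP14 did not pass. USP14 binds the proteasome and trims chains from its substrates. It had the third highest mean level of the members in input, at 31.2, 31.7, 50.9 and 72.1 FPKM in the inputs and 43.6, 52.3, 51.6 and 75.1 FPKM in RIP, with a log2 fold change of -0.15 ± 0.19 (SE), adjusted p = 0.549. The 2 scales differed for USP14. By FPKM it was higher in RIP in 4 of 4 lines (mean log2 ratio 0.31), and by estimated counts it was lower in 3 of 4. Of the 10 members with roles in signalling or immunity, 3 rose (USP4, USP24 and USP34), 2 fell (USP12 and USP46), and USP15, USP18, USP25, USP41 and USP47 did not pass. USP34, which acts on axin in the Wnt pathway, was at 48.8, 28.5, 52.4 and 53.1 FPKM in the inputs and 125, 183, 284 and 132 FPKM in RIP (log2 fold change 1.72 ± 0.27 (SE), adjusted p = 0.000373). Every RIP library was above every input, and in DU145 RIP USP34 took more fragments than any other member (56324). USP18, which removes the ubiquitin-like protein ISG15 from its targets, was higher in 4 of 4 lines, at 3.48, 4.26, 10.8 and 8.26 FPKM in the inputs and 4.45, 6.08, 18.1 and 16.0 FPKM in RIP, but did not pass the test (log2 fold change 0.42 ± 0.21 (SE), adjusted p = 0.13). With limma on log2(FPKM + 1) USP18 did pass, at 0.57 with an adjusted p of 0.0353. USP46 fell by estimated counts and no longer passed without the HCT116 pair (-0.56) or the DU145 pair (-0.71).

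Both cell cycle members passed, in opposite directions. USP2, which stabilises cyclin D1, had a log2 fold change of 1.21 ± 0.33 (SE), adjusted p = 0.0104, and USP37, which acts on cyclin A, one of -0.65 ± 0.20 (SE), adjusted p = 0.0178. USP37 no longer passed without the HCT116 pair (-0.57). Of the 4 members that were long listed as without protease activity, USP39 and USP54 rose, USP53 fell and USP50 did not pass. USP39, a splicing factor of the tri-snRNP, was at 45.8, 58.3, 31.1 and 50.4 FPKM in the inputs and 109.8, 128, 56.3 and 96.1 FPKM in RIP (log2 fold change 1.0 ± 0.18 (SE), adjusted p = 0.00096). Of the 8 members to which no role was assigned, 6 were tested, of which USP31, USP38, USP42 and USP43 rose, USP45 fell and USP40 did not pass.

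Some related USPs differed in RIP. The 9 pairs below were chosen and ordered after the fold changes were seen, so their differences are descriptions without a test. Each difference is in the log2 ratio of RIP to input, taken on estimated counts plus 1, and had the same sign in 4 of 4 lines.

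USP20 and USP33 are close relatives that share the von Hippel-Lindau protein and recycling receptors as partners. The log2 ratios of USP20 were 1.99, 2.69, 2.28 and 2.50 and those of USP33 were -1.01, -0.99, -1.22 and -1.72, a mean difference of 3.60 ± 0.50 (SD, n = 4). On the FPKM scale the difference was smaller, 2.57 ± 0.88, and had the same sign in 4 of 4 lines. USP33 was at 14.6, 20.5, 24.5 and 22.7 FPKM in the inputs and 18.8, 10.9, 12.7 and 10.3 FPKM in RIP, so that by FPKM the Hep3B pair rose while the 3 other lines fell. USP54 and USP53 differed by 3.41 ± 0.93 (2.96 ± 0.78 by FPKM). The log2 ratios of USP54 were 1.04, 2.29, 1.44 and 1.72 and those of USP53 were -1.78, -2.35, -1.13 and -1.87.

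USP4, USP11 and USP15 share the same domain layout, and USP4 and USP15 both act in TGF-β signalling. The log2 ratios were 2.46, 3.11, 2.47 and 2.66 for USP11, 0.94, 1.49, 1.26 and 0.75 for USP4 and -1.39, -0.27, -0.08 and -0.63 for USP15. USP11 exceeded USP15 by 3.27 ± 0.54 (2.37 ± 0.22 by FPKM) and USP4 by 1.56 ± 0.29 (1.28 ± 0.37 by FPKM). USP4 exceeded USP15 by 1.70 ± 0.46 (1.08 ± 0.33 by FPKM), so the order of the 3 was the same in every line. USP15 itself was lower in 4 of 4 lines by estimated counts but did not pass (-0.58 ± 0.24 (SE), adjusted p = 0.0645).

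USP22 exceeded USP27X, which can take its place in the histone H2B module, by 1.99 ± 1.03 (1.91 ± 0.93 by FPKM), with the smallest difference in HCT116 (0.70) and the largest in SW1990 (3.18). USP5 exceeded USP13 by 1.45 ± 0.35, although both rose, and by less on the FPKM scale (0.78 ± 0.57). USP46 exceeded USP12 by 1.19 ± 0.37 (1.44 ± 0.56 by FPKM), although both fell by estimated counts. Both work with WDR48. USP28 exceeded USP25 by 1.08 ± 0.64, and by FPKM by 0.98 ± 0.85 and in only 3 of 4 lines.

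**Figure D3:**
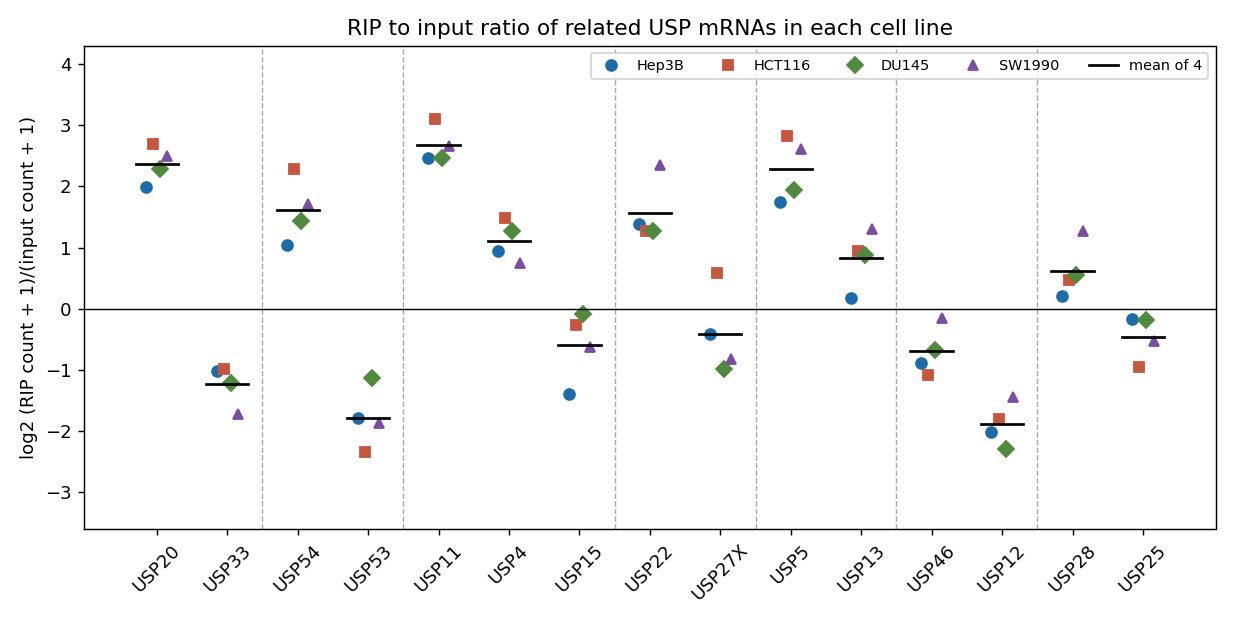
Log2 ratio of RIP to input on estimated counts plus 1 (y axis) for 15 related USP mRNAs (x axis), with 1 point per cell line, a bar at the mean of the 4 lines, and dashed lines between sets of relatives. In each line USP20 lies above USP33, USP54 above USP53, and USP11 above USP4 above USP15.

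The 2 deposited scales did not give the same ratio for many members. FPKM also divides by a transcript length, and how the length was set in each library is not given in the sources used here. Over the members, the median of the log2 ratio by FPKM minus that by estimated counts had values of 0.54, 0.14, 0.24 and 0.16 in the 4 lines, beside 0.25, 0.13, 0.13 and 0.11 over all genes tested. The difference bore on the members that fell. With limma on log2(FPKM + 1) and the same block, the 24 members that rose all passed again and USP18 was gained, while only 4 members passed as lower (USP1, USP12, USP16 and USP53). Of all genes tested, 25.2% passed as higher and 18.2% as lower in this fit, beside 26.5% and 24.9% with edgeR, so lower calls were fewer in general. USP46 was at 11.8, 26.9, 9.42 and 9.67 FPKM in the inputs and 13.2, 16.0, 9.33 and 16.9 FPKM in RIP, with a mean log2 ratio of 0.04 by FPKM and -0.70 by estimated counts. USP45 was at 8.13, 21.4, 13.7 and 17.1 FPKM in the inputs and 9.27, 6.95, 19.9 and 14.8 FPKM in RIP, higher in 2 lines and lower in 2.

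**Figure D4:**
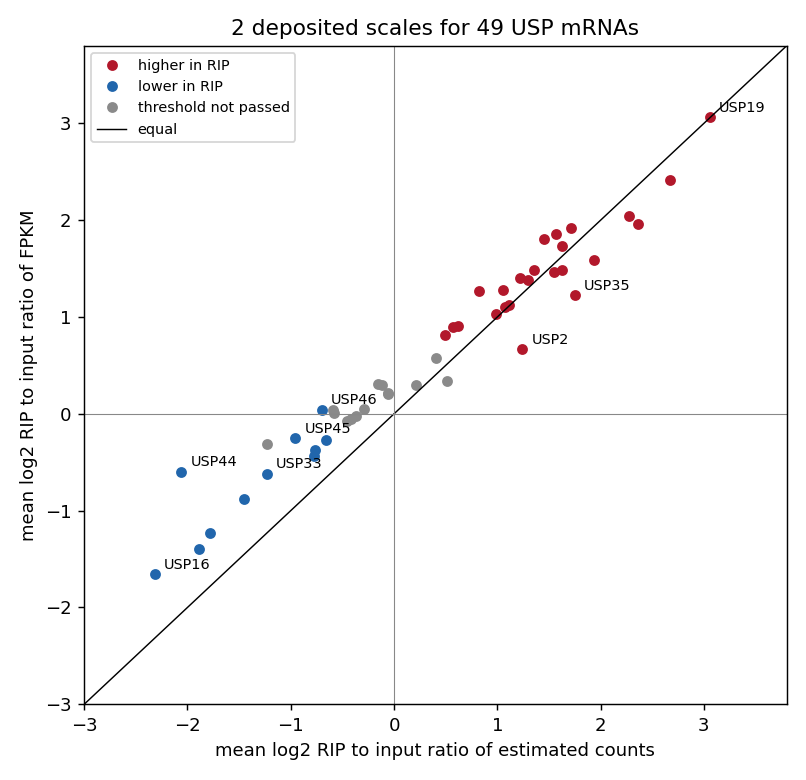
Mean log2 ratio of RIP to input over 4 lines by estimated counts (x axis) and by FPKM (y axis) for the 49 USP mRNAs tested, coloured by the call of the edgeR test, with a line where both are equal. Members called lower lie above the line, and USP46 lies at 0.04 by FPKM.

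Within a line, the members had a higher median ratio of RIP to input than protein-coding genes by FPKM. By log2 of (FPKM + 1), the median ratios of the 49 members were 0.68, 0.66, 0.70 and 0.66, beside 0.20, 0.09, 0.10 and 0.10 over protein-coding genes. By estimated counts the medians were 0.18, 0.46, 0.55 and 0.62, with 28, 33, 28 and 29 of the 49 members above 0, so the evenness between lines held by FPKM only. By FPKM, the SD of the ratios over the members was 0.86 to 1.29. Between 17 and 19 members were more than 2-fold higher in RIP in a line (beside 18.2% to 19.8% of all genes tested) and 2 to 5 were more than 2-fold lower (beside 10.6% to 16% of all genes tested). By the ratios of estimated counts, the order of the members was alike between lines. Spearman's rho was 0.82 to 0.93 over 49 members for the 6 pairs of lines and 0.65 to 0.74 over all 19921 genes. These are descriptions across genes, which are not independent replicates. An effective length was calculated back from the deposited estimated counts and FPKM, pooled over the 8 libraries. It is a relative scale, not an annotated transcript length, and rests on the same values as the ratios. Genes with a longer effective length tended to have higher fold changes, in all genes (rho = 0.26) and in the members (rho = 0.20). The median effective length was 3.03 kb for the members that rose and 2.30 kb for those that fell. Its part in the result was not tested.

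In input, USP22, USP10 and USP14 had the highest mean levels of the family, at 91.3 ± 33.2, 51.9 ± 22.2 and 46.5 ± 19.4 FPKM (SD, n = 4). These levels overlapped between lines with those of USP39 (46.4 FPKM) and USP7 (45.9 FPKM). Input levels of 46 of the 51 members had a mean of at least 1 FPKM. The widest ranges between lines among these 46 were those of USP44, USP2, USP27X, USP41 and USP54. USP44 was readily detected in Hep3B and DU145 and near 0 in HCT116 and SW1990. USP2 was at 1.53, 3.90, 4.01 and 0.331 FPKM, 12.1-fold higher in DU145 than in SW1990, and its 4 RIP levels of 4.28, 6.98, 5.92 and 0.796 FPKM had SW1990 as the lowest line too. USP27X ranged from 0.549 FPKM in Hep3B to 3.88 FPKM in SW1990, and USP54 from 3.16 FPKM in Hep3B to 12.4 FPKM in DU145. USP41 was at 5.24, 6.28, 7.06 and 22.1 FPKM, but its effective length was only 0.099 kb and it is nearly identical to USP18, so its reads may belong to USP18. With 1 input per line these are values without a test. The values of Hep3B and HCT116 were deposited apart from those of DU145 and SW1990, and the part of this in the ranges was not tested.

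**Figure D5:**
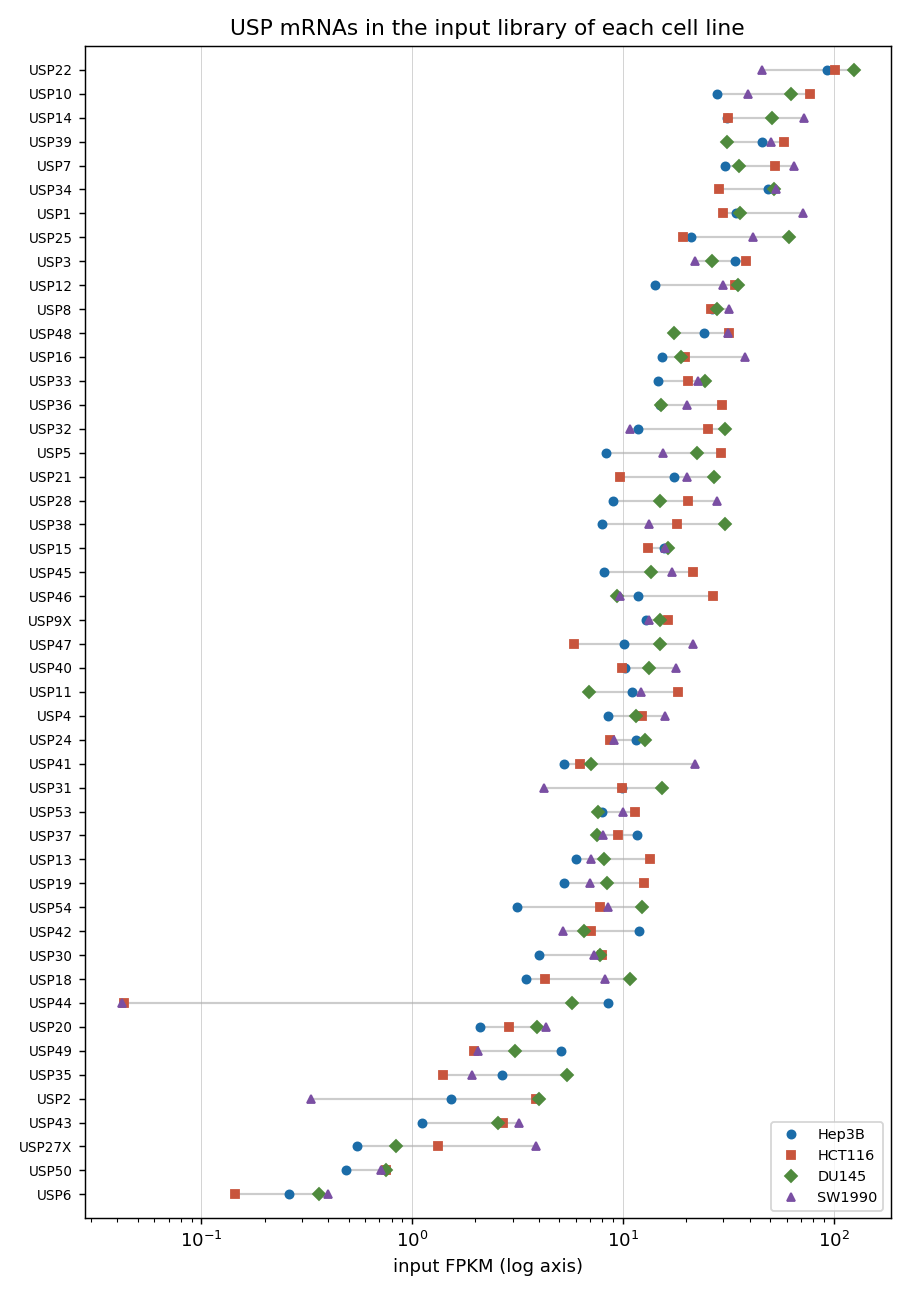
Input FPKM (x axis, log scale) of the 48 USP mRNAs with a mean input of at least 0.2 FPKM (y axis), with 1 point per cell line and a grey line from the lowest to the highest line. USP22 is at the top of the order, and USP44 spans the widest range, near 0 in HCT116 and SW1990.

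Ribosomal protein mRNAs and some other mRNAs of the translation machinery start with a C and a run of pyrimidines, the terminal oligopyrimidine (TOP) motif, through which mTOR controls their translation. The ubiquitin precursor RPS27A is such an mRNA. A start of C followed by at least 4 bases that are each C or T was looked for on the transcript's strand at the RefSeq starts of GRCh38.p14, which covered 39 of the 51 members with 53 starts. It was found at 2 of the 53 starts (3.77%), among them 1 of USP46, beside 1429 of 35116 starts of all genes (4.07%). The first 20 bases are shown for RPS27A as the reference, for USP46, and for the lowest and the highest member of the comparison, with the motif in capitals.
RPS27A (chr2:55232688-55232707, + strand, 1 of its 3 starts): CTTTTCgatccgccatctgc
USP46 (chr4:52659282-52659301, - strand, 1 of its 2 starts): CTCCTCCCggcctccctctc
USP16 (chr21:29024668-29024687, + strand): actctggcttcgactccgtc
USP19 (chr3:49120804-49120823, - strand): gcgccggaaccggaacggag
RPS27A was at 499.6, 824, 723 and 1473 FPKM in the inputs and 159, 95.7, 177 and 266 FPKM in RIP (log2 fold change -2.46 ± 0.28 (SE), adjusted p = 5.66e-05). USP46 was lower in RIP by estimated counts, with a log2 fold change of -0.69 ± 0.21 (SE), adjusted p = 0.0172. The member with the other matching start is not shown here, so USP46 does not stand for both. USP16 and USP19 hold no such run at this start and stood at opposite ends of the comparison. A match of letters is a description of the annotated start, and the starts used in these cells were not measured.

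The other deubiquitinase families were set beside the USPs in the same fit. Of 33 tested deubiquitinases of other folds, 9 rose (27.3%) and 13 fell (39.4%), beside 26.5% and 24.9% of all genes tested, with a median log2 fold change of -0.35. Among the 14 OTU proteases 5 rose and 4 fell, with OTUD6B at -2.47, YOD1 at -2.25 and OTUD5 at 1.84. OTUD5 regulates interferon signalling and chromatin, and YOD1 works with the ATPase VCP. Of the 4 UCH proteases 1 rose and 2 fell, with UCHL5 (a proteasome subunit) at -2.09, BAP1 (a histone H2A deubiquitinase) at 1.75, and UCHL3 at -1.62. ATXN3, the Josephin protease of spinocerebellar ataxia, fell from 8.72, 15.1, 9.20 and 18.2 FPKM to 3.97, 3.12, 0.339 and 2.88 FPKM (log2 fold change -3.05 ± 0.38 (SE), adjusted p = 9.1e-05), and 2 other Josephin genes did not pass. Of 7 JAMM metalloproteases 1 rose and 4 fell, with MYSM1 at -1.21, MPND at 1.14 and STAMBP at -1.09. Of 5 MINDY and ZUP1 proteases, 2 rose and 2 fell, with FAM188B at 1.29, FAM188A at -1.17 and FAM63B at -1.17. PAN2 (a deadenylase subunit with a USP fold) rose by 1.45, USPL1 (a SUMO protease with a USP fold) had a log2 fold change of -0.89, and CYLD did not pass.

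Of 12 proteins that work with USPs, 3 rose (25%), 5 fell (41.7%) and 4 did not pass, beside 26.5% and 24.9% of all genes tested. ENY2, which holds USP22 in the SAGA module, was at 39.5, 22.1, 21.5 and 33.9 FPKM in the inputs and 16.3, 5.02, 2.84 and 3.65 FPKM in RIP (log2 fold change -2.78 ± 0.35 (SE), adjusted p = 9.24e-05), opposite in direction to USP22. In the same list ATXN7L3 rose as USP22 did (log2 fold change 1.06 ± 0.18 (SE), adjusted p = 0.000706), and ATXN7 did not pass (-0.40). STAM2, which binds USP8 at endosomes, had a log2 fold change of -2.13 ± 0.22 (SE), adjusted p = 3.12e-05. DMWD, a partner of USP12 and USP46, had one of 2.12 ± 0.19 (SE), adjusted p = 1.74e-05, opposite in direction to both enzymes by estimated counts and to USP12 only by FPKM, where USP46 was near 0. Among ubiquitin precursors and activating enzymes, UBA1, the main activating enzyme, rose from 31.6, 44.4, 31.8 and 27.4 FPKM to 127, 406, 136 and 158 FPKM (log2 fold change 2.47 ± 0.25 (SE), adjusted p = 2.6e-05). RPS27A, in which ubiquitin is fused to a ribosomal protein, fell (-2.46), and UBB and UBA6 did not pass. Ribosomal protein genes have many processed pseudogenes, so the reads of RPS27A may be shared with copies. In the ISG15 pathway, HERC5 rose (0.90 ± 0.31 (SE), adjusted p = 0.0339) and ISG15, UBA7 and UBE2L6 did not pass.

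Some members cannot be fully told from their neighbours. Of the 51 members, 32 lie in the deposited annotation in a span of several overlapping genes and 19 in a span of their own. USP8 and USP50 share 1 span (hg19 chr15:50716576-50838905), and the estimated counts of USP50 (mean 20.5) may include reads of USP8. USP6 arose in part from USP32, and reads of both may have been split between them.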

How the data were processed

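RNA from RPS6 RIP and from input of Hep3B, HCT116, DU145 and SW1990 cells was sequenced by the authors. Per the labels, libraries were made with a stranded total RNA kit and reads were processed with CASAVA 1.8 and TopHat2 2.0.9 on hg19. The tool and strand setting of the counting are not given in the sources used here. The tables the authors deposited list FPKM per gene and library. Beside it stands an estimated count that the authors deposited, scaled by 1 factor per library (0.673 to 1.27), which need not be whole. Division by this factor gave whole fragments (within 0.01) for 92.5% to 94.0% of the values, and these were used for depth and for 95% Wilson intervals. The deposited comparison files hold fold changes, p-values and q-values for each pair of libraries and were not used.

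The design had assumed counts. The estimated counts were rounded and tested with edgeR 4.0.16 (R 4.3.3) with TMM, the cell line as a block, a mean of at least 10 counts over 8 libraries and an adjusted p of 0.05. Fold changes and SE are on the log2 scale. The SE is the absolute fold change divided by the square root of the test's F statistic. It follows from the fitted model and is not the standard error of the ratios of the 4 lines. Lines pair the libraries by design: the deviation of a RIP library from its group mean correlated with that of its own input with r of 0.839 to 0.886 across 19921 genes, and with that of another input at -0.0423 or less. Deviations from a group mean cancel out over the 4 lines, so the low values for other inputs partly follow from the high own-pair values. On simulated data for RIP against input with 19921 genes and 200 changed genes, the block fit recovered 68 of 100 genes changed 4-fold and 18 of 100 changed 2-fold, with 10 false calls. Without the block it recovered 0. In the data 5282 genes passed as higher and 4960 as lower, far more than were changed in the simulation, so these rates need not carry over. The fit without the block called 7.16% and 6.75% of all genes in the data, so its result in the simulation does not carry over either. Ratios within a line have no test and were taken as log2(FPKM + 1). Alternatives used DESeq2 1.42.0, limma 3.58.1, other filters, another centring, and each line left out in turn.

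The members, role lists, partner lists and markers were chosen with earlier results of these data known. The genes described were every ribosome-linked member, the 5 highest and 5 lowest members past the threshold with 1 direction in 4 of 4 lines, the 5 members with the widest input range among those of at least 1 FPKM, the 3 with the highest mean input, those below the minimum count, at most 4 further examples per role list, and the 3 largest changes past the threshold of each other list. Some items of these lists are not reported here. Other genes described in full (USP33 and the sets of relatives, and those that lost a call) were chosen after their values were seen. Start sequences were taken from RefSeq on GRCh38.p14.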

Additional observations from a re-analysis of the deposited data

Results flagged for a closer look

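In 147 groups of 4 libraries or 4 ratios, each of a tested USP mRNA, 10 had 1 value far from the other 3. Chance alone sets about 1 value in 20 such groups apart. USP1 was at 71.8 FPKM in SW1990 input and at 30.0 to 36.1 FPKM in the other inputs. USP46 was at 26.9 FPKM in HCT116 input and at 9.42 to 11.8 FPKM in the others. USP41, which is nearly identical to USP18, was at 22.1 FPKM in SW1990 input and at 5.24 to 7.07 FPKM in the others. USP49 was at 5.34 FPKM in Hep3B RIP and at 2.29 to 2.65 FPKM in the other RIP libraries.

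For 3 members the log2 ratio of RIP to input by FPKM stood apart in 1 line. It was 1.87 for USP13 in SW1990 and 1.0 to 1.14 in the other lines. It was 0.80 for USP30 in Hep3B and between -0.08 and 0.06 in the others. It was 0.34 for USP33 in Hep3B and between -1.06 and -0.85 in the others, while by estimated counts the Hep3B ratio of USP33 (-1.01) lay beside that of HCT116 (-0.99). The remaining values belong to members with very low levels. USP50 was at 0.486 FPKM in Hep3B input (0.712 to 0.756 FPKM in the others) and at 0.975 FPKM in HCT116 RIP (0.166 to 0.230 FPKM in the others), and USP51 was at 0.330 FPKM in DU145 RIP and listed at 0 in the other RIP libraries.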

How the results depend on the processing

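DESeq2 called the same 24 members higher and the same 11 lower, beside 28.4% and 27.1% of all genes tested. The other count alternatives (no filter, a mean of at least 50, centring on protein-coding genes, and whole fragments) gave 22 to 24 higher and 11 to 13 lower. Of all genes tested, 13.5% (no filter) to 32.3% (mean of at least 50) were higher and 14.8% to 30.4% lower. The excess of members over all genes thus depended on the filter. USP7 or USP32 lost and USP15 or USP25 gained a call in some of these alternatives. Without the replicate block (the cell line pairing), 12 members were higher and 5 lower, beside 7.16% and 6.75% of all genes tested. Of the other deubiquitinase, partner and ubiquitin genes 5 were then higher and 8 lower, in place of 15 and 21. With limma on log2(FPKM + 1) and on log2(FPKM + 0.1), 4 and 4 members were lower, beside 18.2% and 18.5% of all genes tested. Of the other deubiquitinase, partner and ubiquitin genes 13 and 12 were lower. USP3, USP8, USP33, USP37, USP44, USP45 and USP46 lost their call under both, while USP18 gained one under the first. The cause was not tested. Leaving out each line in turn gave 21 to 23 members higher and 9 to 12 lower, and 12 to 15 of the other genes higher and 19 to 24 lower. In these fits 22.7% to 24.9% of all genes tested were higher and 20.8% to 26.3% lower.

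Of the fold changes of single members under all alternatives, 513 kept their direction and side of the threshold, 46 no longer passed, 6 newly passed and 19 changed sign. All that changed sign had not passed, apart from USP46. With limma on log2(FPKM + 1) and log2(FPKM + 0.1) these were USP14 (0.31 and 0.32), USP15 (0.045 and 0.045), USP30 (0.20 and 0.23), USP46 (0.041 and 0.049), USP47 (0.22 and 0.24), USP48 (0.29 and 0.30) and USP49 (0.053 and 0.074). USP30 turned without DU145 (0.089) and USP48 without SW1990 (0.020). USP51, at the minimum count, turned without the block (0.091), with limma on log2(FPKM + 1) (0.013) and without Hep3B (0.19). The cause was not tested. The median log2 ratio of the members within a line, by FPKM, became 0.76, 0.69, 0.72 and 0.76 in Hep3B, HCT116, DU145 and SW1990 with a pseudocount of 0.1 and 0.48, 0.56, 0.59 and 0.56 after subtraction of the protein-coding median. USP26, USP29, USP50 and USP51 were too shallow for a direction.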
